A study of Arabidopsis thaliana with 9 samples.

Results

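The aquaporin family of Arabidopsis thaliana was followed through salt and abscisic acid (ABA) treatment. Its 35 genes were taken by locus: 13 plasma membrane intrinsic proteins (PIPs), 10 tonoplast intrinsic proteins (TIPs), 9 NOD26-like intrinsic proteins (NIPs) and 3 small basic intrinsic proteins (SIPs). All 35 had at least 1 probe, among 25481 loci matched on the array. Of these, 28 were bright enough to test, with a spot well above background throughout the 3 arrays of some group, among 22805 genes tested in all: 13 PIPs, 7 TIPs, 5 NIPs and 3 SIPs. A filter of this kind keeps a gene that is bright in a single group, so counts over tested members are not counts over the family. Gene names carry the hyphen of protein databases, so that PIP1-5 is the gene also written PIP1;5.

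Whole Col-0 seedlings, 4 weeks old and wild type, were compared in 3 groups: 150 mM NaCl for 6 h, 10 µM ABA for 6 h, and controls given water, with 3 one-colour Agilent arrays each. Root and shoot were harvested together. Seedlings of a treatment were pooled before they were divided into replicates, so p-values measure the spread between those portions. The NaCl arrays shared 1 slide, with a scan day 235 days away from that of the rest, the control arrays shared another slide, and the ABA arrays were spread over 2 more. No slide held more than 1 group, so treatment cannot be told apart from slide, nor NaCl from scan day. Values are log2 of the spot intensity after quantile normalization over the 9 arrays. Between 68.9% and 72.0% of probes were well above background on each array, 27 to 31 of the 35 aquaporin genes among them, and no spot was saturated. The stress markers RAB18, RD29B and HAI1, which ABA is known to induce, were all called higher with NaCl. With ABA, RD29B and HAI1 were called higher, and RAB18 differed by 2.09 ± 0.48 (log2, SE, adjusted p = 0.0703, limma). Over all genes, 9.93% were called higher with NaCl and 0.842% with ABA. RD29B was above background on no control array and passed the filter only through the treated groups, so its calls follow in part from the filter.

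Aquaporins are membrane channels that let water and small neutral solutes cross lipid bilayers, and they assemble as tetramers. PIP2 proteins form water channels in the plasma membrane, and PIP1 proteins generally need a PIP2 partner to reach it. TIPs sit in the vacuolar membrane, SIPs in the endoplasmic reticulum, and several NIPs carry boric acid, arsenite or lactic acid rather than water. In plants, the water permeability of tissues under salt and drought is known to be set by aquaporin transcript levels and also by phosphorylation, trafficking and degradation of the proteins, which an array does not measure.

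To find which aquaporin transcripts responded to salt, NaCl arrays were set against control arrays. A gene counted as called if its adjusted p was under 0.05 and its groups differed 2-fold or more. NIP2-1, a lactic acid channel of roots, PIP1-5, TIP5-1 and NIP1-2 were called higher with NaCl, while SIP1-2, PIP2-3 and TIP2-2 were called lower. This makes 4 higher and 3 lower of 28 tested members. NIP2-1 passed the filter only through the NaCl arrays, where it is bright, so its call follows in part from the filter. With the 26 members above background on all 9 arrays, 3 were called higher and 3 lower. Over all genes, 23.2% were called, 9.93% higher and 13.3% lower, so 7 of 28 is near the background. NaCl and control arrays did not overlap for 6 members that were higher and 4 that were lower, where 22.7% and 30.2% of all genes behaved so. The plot of fold changes shows all 28 with their intervals.

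**Figure D1:**
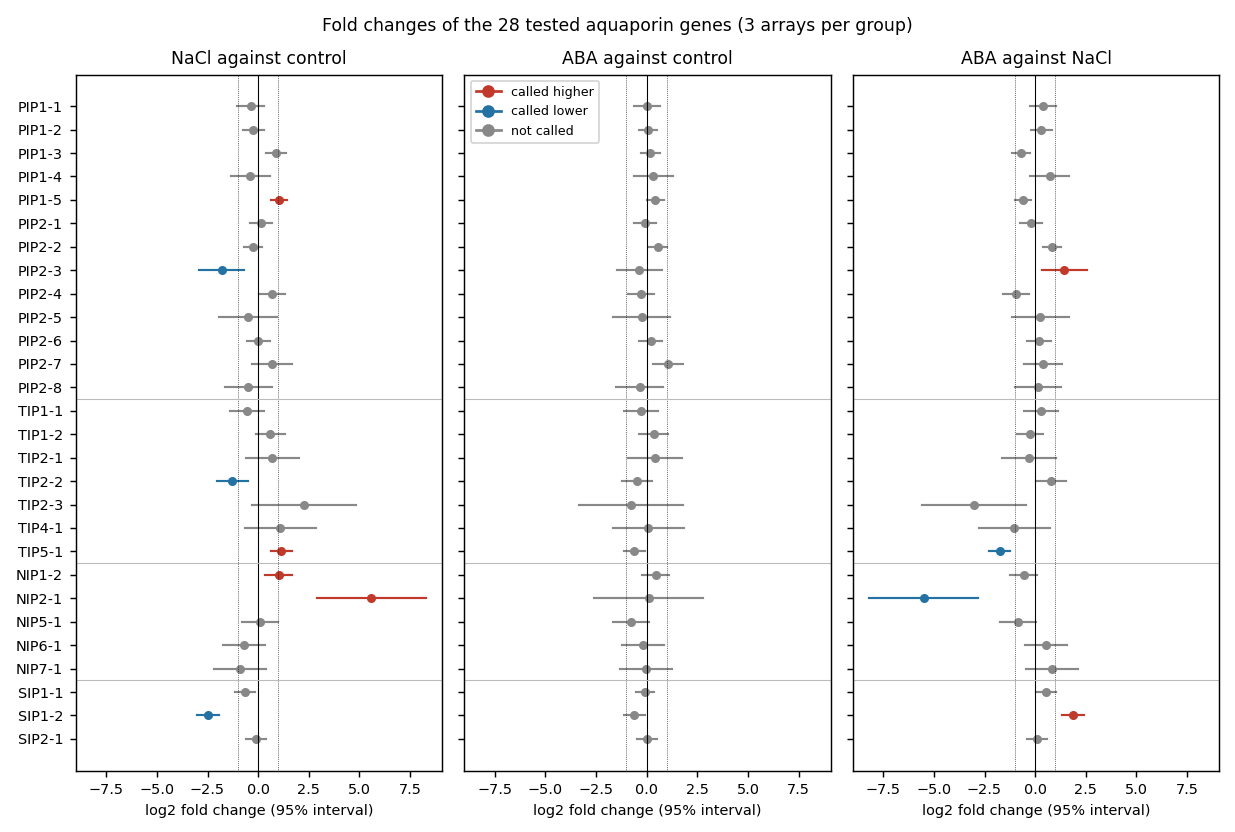
Log2 fold change (x axis) of each of the 28 tested aquaporin genes (rows, grouped as PIP, TIP, NIP and SIP) in 3 panels (NaCl over control, ABA over control, ABA over NaCl). Points are limma estimates from 3 arrays per group, bars are 95% intervals, dotted lines mark a fold of 2, and colour marks called genes: 7 in the left panel, 0 in the middle and 4 in the right.

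PIP1-5 (AT4G23400), a PIP1 protein, had log2 values of 14.56, 14.76 and 14.67 on the NaCl arrays, 13.89, 14.34 and 13.97 on the ABA arrays, and 13.78, 13.74 and 13.38 on the control arrays. All NaCl arrays were above all ABA arrays, which were above all control arrays. The NaCl difference was 1.03 ± 0.17 (log2, SE) with an adjusted p of 0.00334 by limma, a fold of 2.04. That is close to the fold threshold, and the call was lost at 0.90 without control replicate 3, 0.98 without NaCl replicate 2 and 0.89 with 75th percentile scaling. Its dimmer probe differed by 0.90 (adjusted p = 0.00832). PIP1-3 (AT1G01620) also passed the adjusted p without reaching 2-fold. Its values were 16.02, 16.18 and 16.40 on the NaCl arrays, 15.57, 15.44 and 15.47 on the ABA arrays, and 15.57 and 15.08 on the 2 control arrays with a usable spot. It differed by 0.87 ± 0.20 with NaCl (adjusted p = 0.0136, limma), again with no overlap between NaCl and control arrays.

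PIP2-3 (AT2G37180), also known as RD28 from its isolation as a desiccation-responsive transcript, went the other way. It read 7.57, 7.91 and 8.41 on the NaCl arrays, against 10.22, 10.31 and 8.77 on the control arrays. The groups did not overlap, although the lowest control array was close to the highest NaCl array. The difference was −1.80 ± 0.48 (adjusted p = 0.0194, limma), and it missed the adjusted threshold when control replicate 1 or 2, or NaCl replicate 1 or 2, was left out (−1.53 to −1.79, adjusted p = 0.0573 to 0.0654). PIP2-2 (AT2G37170), its direct neighbour on the chromosome and a close relative in sequence, read 11.87, 11.59 and 11.66 on the NaCl arrays, against 11.97, 12.18 and 11.78 on the control arrays. That difference was −0.27 ± 0.19 (adjusted p = 0.287). Each of the pair has a single probe, and whether it also binds the transcript of the other was not tested.

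The other 9 PIPs were not called with NaCl. Their differences ran between −0.50 for PIP2-5 and 0.70 for PIP2-4, a root isoform whose interval of 0.06 to 1.33 lay above 0 with an adjusted p of 0.0775. With array weights PIP2-4 was called higher (1.03, adjusted p = 0.00335, limma). For the 13 PIPs the median difference was −0.23, against −0.11 over all genes tested. PIP2-1, a main water channel of roots and guard cells, PIP1-2, known also for carbon dioxide transport in leaves, and PIP2-6 differed by 0.14, −0.23 and 0.01. Their 95% intervals stayed within −0.74 and 0.67 on these probes.

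**Figure D2:**
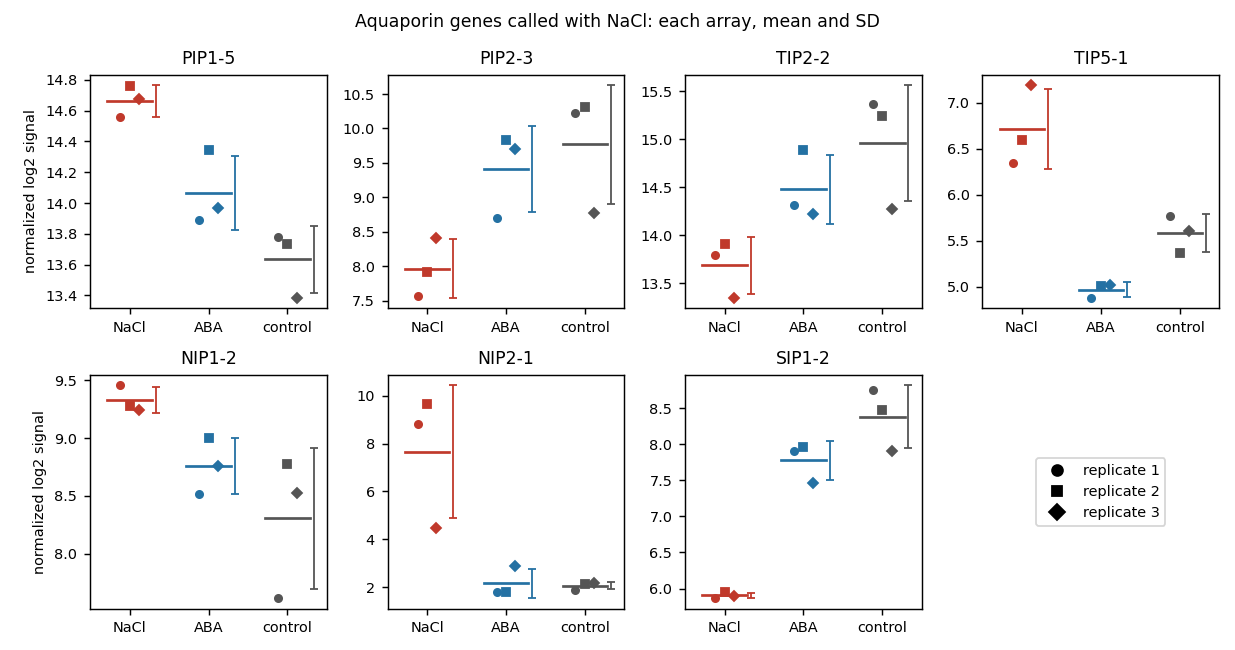
Normalized log2 signal (y axis, own scale in each panel) of the 7 aquaporin genes called with NaCl on each of 9 arrays, by group (x axis, NaCl, ABA, control). Symbols give the replicate, horizontal lines the group mean and error bars the SD of 3 arrays. NaCl and control arrays do not overlap for any of the 7, and NIP2-1 is bright in the NaCl group alone, with replicate 3 at 4.47.

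Among the TIPs, TIP2-2 (AT4G17340), a vacuolar channel found mainly in roots, read 13.80, 13.91 and 13.35 with NaCl, 14.32, 14.88 and 14.22 with ABA, and 15.37, 15.24 and 14.27 in controls. All NaCl arrays were below all ABA and control arrays. The NaCl difference was −1.28 ± 0.33 (adjusted p = 0.0169, limma). It was −1.07 without control replicate 1 and −1.14 without control replicate 2, with adjusted p of 0.0566 and 0.0527, and was not called in either case. Its 4 probes, each tested on its own, were all called lower with NaCl, by −1.28 to −2.16.

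TIP5-1 (AT3G47440), described mainly from pollen, read 6.35, 6.59 and 7.19 on the NaCl arrays, 4.88, 5.01 and 5.02 on the ABA arrays, and 5.77, 5.36 and 5.61 on the control arrays. The 3 groups did not overlap, with NaCl above and ABA below control. The NaCl difference was 1.13 ± 0.23 (adjusted p = 0.00624, limma), and it was under a fold of 2 without NaCl replicate 3 (0.90) and with another background correction, normexp (0.52). NaCl replicate 3 was also the highest of the 9 arrays for TIP1-3 (3.81) and NIP4-1 (4.37), which are pollen genes and were not tested. The pollen marker VGD1 read 6.67 on it, and 2.60 and 3.12 on the other NaCl arrays, 1.64 to 3.70 with ABA and 1.59 to 4.07 in controls, while the pollen marker BCP1 stayed between 1.48 and 1.55 on all 9. Of these 2 pollen markers, neither was above background on more than 1 NaCl array, and their part in the TIP5-1 result was not tested.

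TIP2-3 (AT5G47450), a root TIP known to conduct ammonia, spread most among the tested TIPs. It read 10.58, 8.24 and 5.44 on the NaCl arrays, 5.25, 5.51 and 4.47 on the ABA arrays, and 6.13, 6.33 and 5.04 on the control arrays. NaCl replicates 1 and 2 were above every control array and replicate 3 was among them. The difference was 2.25 ± 1.11 (adjusted p = 0.14, limma), and 3.60 (adjusted p = 0.0088) without NaCl replicate 3 and 1.01 (adjusted p = 0.373) without NaCl replicate 1. It was also called with array weights (adjusted p = 0.0108) and with slide as a random block (0.00595). No slide held more than 1 group, so the slide block does not adjust for slide. Its fitted correlation within a slide was −0.341, a sign that narrows the errors of group means, so its calls are no support. TIP4-1 (AT2G25810), another root isoform, read 7.88, 5.65 and 5.35 with NaCl, against 4.93, 6.35 and 4.30 in controls, and overlapped (1.1 ± 0.76, adjusted p = 0.28). TIP2-1, the delta-TIP of shoots, read 14.84, 16.60 and 17.48 with NaCl, against 15.36, 15.99 and 15.46 in controls (0.70 ± 0.58, adjusted p = 0.357). On NaCl replicate 1 the 2 root isoforms TIP2-3 and TIP4-1 were thus at their highest and TIP2-1 was at its lowest. TIP1-1, the gamma-TIP abundant in growing cells, and TIP1-2 differed by −0.56 and 0.61 and were not called. All 4 probes of TIP1-1 were lower with NaCl, by −0.56 to −1.22, and none was called on its own. Without NaCl replicate 3, TIP1-1 was called lower (−1.04, adjusted p = 0.0495, limma). The 7 tested TIPs had a median difference of 0.70, which is the value of TIP2-1, against −0.11 over all genes tested. Of the 7, 5 differed upward and 2 downward, with 1 called each way. The medians of the tested NIPs and SIPs were 0.08 and −0.64.

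NIP2-1 (AT2G34390) gave the largest difference of the family. It read 8.83, 9.64 and 4.47 on the NaCl arrays, 1.79, 1.80 and 2.87 on the ABA arrays, and 1.89, 2.13 and 2.17 on the control arrays. It was above background on all 3 NaCl arrays and on none of the ABA or control arrays. The NaCl signal was 48.0-fold higher than the control signal as measured (adjusted p = 0.00746, limma). On the log2 scale the 95% interval of this difference was 2.90 to 8.27. The control spots were not well above background, so the control level is poorly known. The fold rests on the NaCl arrays used: it was 31.9 without replicate 1, 24.1 without replicate 2 and 144 without replicate 3. With normexp, which adds an offset to every spot, the measured difference was 1.97 in place of 5.59 on the log2 scale. The gene entered the test only through its NaCl arrays, so the p adds little to these values. NIP2-1 transcripts are known to accumulate under low oxygen, where the channel lets lactic acid leave root cells.

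NIP1-2 (AT4G18910), which carries aluminium malate, read 9.46, 9.28 and 9.24 with NaCl, 8.52, 9.0 and 8.76 with ABA, and 7.62, 8.78 and 8.52 in controls. NaCl arrays were above all others, by 1.02 ± 0.29 against control (adjusted p = 0.0257, limma). Control replicate 1 was the lowest of the 9. Without it the difference was 0.67, without NaCl replicate 1 or 2 the adjusted p was 0.0711 or 0.0642, and the call was lost each time. NIP1-1 (AT4G19030), an arsenite-permeable root channel 15 genes away on the same chromosome, missed the filter. It read 6.31, 4.30 and 2.5 with NaCl, above background on 2 of the 3 arrays, and lay between 1.63 and 2.00 on the 6 ABA and control arrays, on none of them above background.

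The boric acid channels NIP5-1, which takes up boron in roots, NIP6-1, which distributes it in shoots, and NIP7-1, of anthers, differed by 0.08 ± 0.38, −0.68 ± 0.45 and −0.89 ± 0.56 with NaCl, and none was called. NIP7-1 was above background on 1 NaCl array and on all ABA and control arrays, through which it passed the filter. It read 3.43, 3.43 and 5.54 with NaCl. It was called lower without NaCl replicate 3 (−1.60, adjusted p = 0.00702, limma) and with array weights (−1.35, adjusted p = 0.00892). Of the boron exporters that work beside these channels, BOR2 was called higher with NaCl (1.27 ± 0.25, adjusted p = 0.00605), BOR1 differed by −0.71 and BOR4 was not tested.

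SIP1-2 (AT5G18290), an endoplasmic reticulum aquaporin, was called in the same direction whichever single array was left out. It read 5.87, 5.95 and 5.89 on the NaCl arrays, 7.91, 7.96 and 7.47 on the ABA arrays, and 8.75, 8.48 and 7.91 on the control arrays. All NaCl arrays were far below the rest, by −2.48 ± 0.23 against control (adjusted p = 0.000375, limma). SIP1-1 differed by −0.64 ± 0.21 (adjusted p = 0.0459), under the fold threshold, and SIP2-1 differed by −0.09 ± 0.21.

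Whole seedlings hold roots and shoots, and markers of both were read on the same arrays. Of 11 root markers, 7 were tested and 2 were called higher with NaCl, none lower, where 9.93% and 13.3% of all genes were. The 2 were COBL9 of root hairs (3.30 ± 0.58, adjusted p = 0.0037) and MYB36 of the endodermis (2.87 ± 0.91, adjusted p = 0.0373). Both passed the filter only through the NaCl arrays, where they are high, so the count is no measure of the list. The 7 had a median difference of 2.42. That median and the summed level below include both genes, so they follow in part from the filter as well. Root markers above background numbered 10, 7 and 6 on NaCl replicates 1, 2 and 3, 3 to 6 on the ABA arrays and 6 to 8 on the control arrays. The summed level of the 6 tested with a usable spot on all 9 arrays, as log2, was 10.57 to 12.13 with NaCl, 10.08 to 10.21 with ABA and 10.04 to 10.48 in controls. On the ABA and control arrays this sum of intensities is mostly SCR, at 9.94 to 9.97 and 9.80 to 10.12. The root tip marker WOX5 and the root hair marker EXPA7 were among the 4 that missed the filter. Of 11 shoot markers, all tested, 2 were called lower with NaCl (RBCS1A and YAB3) and none higher, with a median of −0.97. Over all genes 13.3% were called lower, so 2 of 11 is near the background. The summed level of the 5 usable on all 9 arrays was 17.56 to 17.88 with NaCl, 18.46 to 18.51 with ABA and 18.25 to 18.46 in controls. That sum of intensities is almost all LHCB1.1, which alone read 17.55 to 17.87, 18.45 to 18.50 and 18.24 to 18.45. It therefore does not speak for the other shoot markers.

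Root markers were uneven over the NaCl arrays. CASP1, of the Casparian strip, read 10.89, 9.56 and 6.02 with NaCl, against 7.07, 6.22 and 5.92 in controls. MYB36 read 8.07, 8.21 and 5.98 with NaCl, against 4.05, 5.97 and 3.62 in controls. Among the NaCl arrays, CASP1, MYB36 and SCR were lowest on replicate 3, as were TIP2-3, NIP1-1 and NIP2-1. Other root markers went the other way: COBL9 (6.30, 5.34 and 7.24) and SHR (9.27, 9.32 and 9.80) were highest on replicate 3. SHR and SCR differed by −0.20 and 0.37 with NaCl and were not called. The part of the root markers in the results for TIP2-3, TIP4-1, NIP1-1, NIP2-1 and TIP2-2 was not tested. In bulk tissue, fewer cells of a type and less RNA per cell cannot be told apart.

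**Figure D3:**
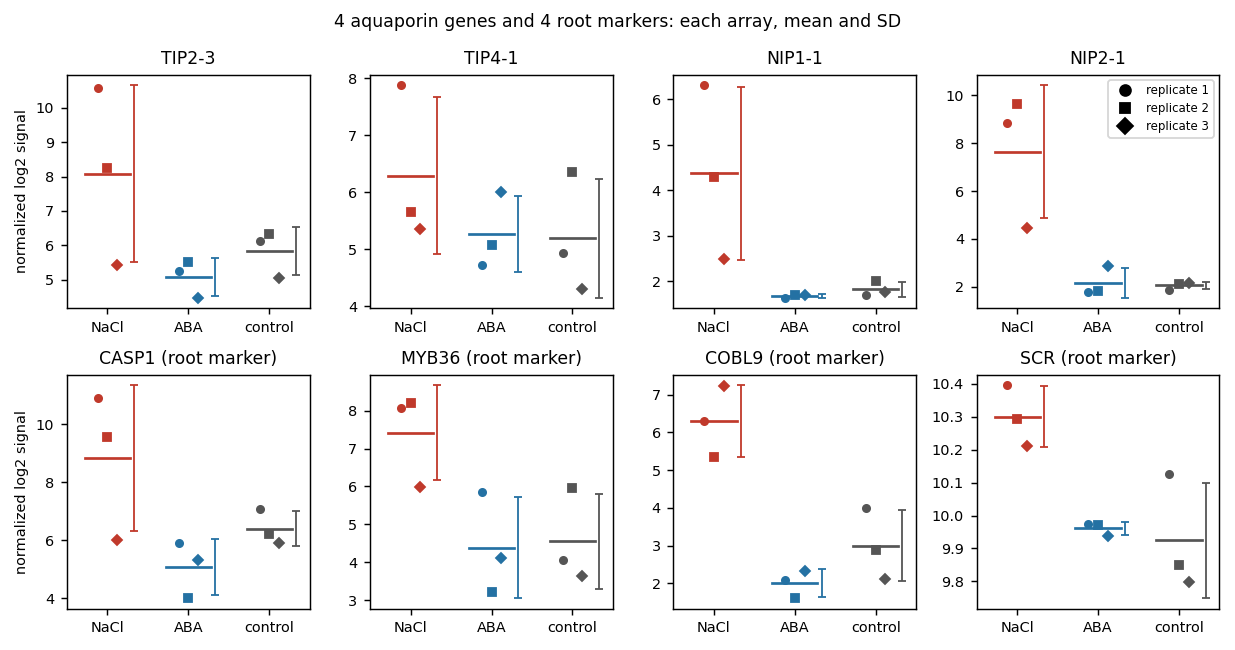
Normalized log2 signal (y axis, own scale in each panel) of 4 aquaporin genes (upper row) and 4 root markers (lower row) on each array, by group (x axis). Symbols give the replicate, lines the mean and bars the SD of 3 arrays. NaCl replicate 3 is the lowest NaCl array for TIP2-3, TIP4-1, NIP1-1, NIP2-1, CASP1, MYB36 and SCR, and the highest for COBL9 (7.24).

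To ask whether ABA alone moved the family, ABA arrays were set against control arrays. None of the 28 tested members was called by limma, where 1.57% of all genes were called (0.842% higher and 0.732% lower). At an unadjusted limma p under 0.05, 5 members passed, PIP1-5, PIP2-2 and PIP2-7 higher and TIP5-1 and SIP1-2 lower. Over all genes 5.97% passed higher and 12.6% lower, so 5 of 28 is near the background. The methods' t-test at that threshold and a fold of 2 gave 0. The groups did not overlap for 3 members that were higher and 1 that was lower, where 9.27% and 20.3% of all genes behaved so. The medians were 0.07 for PIPs, −0.29 for TIPs, −0.04 for NIPs and −0.09 for SIPs, against −0.11 for all genes. Without scaling between arrays, the median of all genes was 0.48 in this comparison, so directions of differences near 0 depend on the scaling.

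PIP2-7 (AT4G35100), a water channel of the plasma membrane, had the largest difference with ABA. It read 14.87 on the 1 NaCl array with a usable spot and 15.45, 15.17 and 15.15 on the ABA arrays, against 14.58 and 13.81 on the 2 control arrays with a usable spot. The difference was 1.06 ± 0.28 (adjusted p = 0.148, limma). All 5 of its probes were higher with ABA, by 0.94 to 1.43, and on its own none passed the adjusted threshold. On 3 of these probes all 9 spots were usable. Probe A_84_P809263 read 12.74, 12.72 and 12.70 with ABA, against 11.25, 11.97 and 11.03 in controls (1.30, adjusted p = 0.0801), and probe A_84_P809237 read 13.54, 13.24 and 13.23 with ABA, against 12.04, 12.53 and 11.60 in controls (1.28, adjusted p = 0.0995). ABA and control arrays did not overlap on either. With NaCl the 5 probes differed by 0.27 to 0.69.

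PIP2-2 read 12.22, 12.71 and 12.75 with ABA, against 11.97, 12.18 and 11.78 in controls, with no overlap (0.58 ± 0.19, adjusted p = 0.162). PIP1-5 differed by 0.43 ± 0.17 (adjusted p = 0.24) and TIP5-1 by −0.61 ± 0.23 (adjusted p = 0.202), and SIP1-2 by −0.60 ± 0.23 (adjusted p = 0.226). The 95% interval with ABA lay within a fold of 2 in both directions for PIP1-1, PIP1-2, PIP1-3, PIP1-5, PIP2-1, PIP2-4, PIP2-6, SIP1-1 and SIP2-1. For TIP2-3 (−3.32 to 1.80), TIP4-1 (−1.68 to 1.83) and NIP2-1 (−2.59 to 2.78) it left room for large differences both ways. No root or shoot marker was called with ABA.

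The treatments were then compared directly, in which the control means play no part. With ABA, 2 of the 28 members were called higher than with NaCl and 2 lower, where 10.4% and 9.81% of all genes were. PIP2-3 read 8.70, 9.83 and 9.71 with ABA, against 7.57, 7.91 and 8.41 with NaCl, a difference of 1.45 ± 0.48 (adjusted p = 0.0472, limma). This call did not hold when control replicate 1 or 2, ABA replicate 2 or 3, or NaCl replicate 1 or 2 was left out (1.23 to 1.44, adjusted p = 0.0524 to 0.134). SIP1-2 was higher with ABA by 1.87 ± 0.23 (adjusted p = 0.00126). TIP5-1 was lower with ABA (−1.74 ± 0.23, adjusted p = 0.00141), but under the fold threshold with normexp (−0.75). NIP2-1, tested only through its NaCl arrays, was 45.0-fold lower with ABA as measured (adjusted p = 0.00917, limma). That fold was 22.5 to 135 with 1 NaCl array left out, and the log2 difference was −1.99 with normexp, in place of −5.49. In none of these 4 did ABA and NaCl arrays overlap.

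A further 4 PIPs passed the adjusted p in this comparison with a fold under 2. PIP2-2 was higher with ABA (0.85 ± 0.19, adjusted p = 0.0114), while PIP1-3 (−0.70 ± 0.18), PIP1-5 (−0.60 ± 0.17) and PIP2-4 (−0.96 ± 0.28) were lower, with adjusted p between 0.0223 and 0.0313. Of the 28 members, 9 were higher and 8 lower with ABA without overlap between the arrays, where 25.5% and 26.6% of all genes were. TIP2-2 was above its NaCl arrays on all ABA arrays (0.79 ± 0.33, adjusted p = 0.0937), and 3 of its 4 probes were called on their own. TIP2-3 differed by −3.01 ± 1.11 (adjusted p = 0.0674). It was called with 75th percentile scaling (adjusted p = 0.0457), a replicate block (0.0392) and array weights (0.000529). It was also called with slide as a random block (0.00649), which does not adjust for slide. Its difference was −4.37 (adjusted p = 0.0053) without NaCl replicate 3 and −1.77 (0.144) without NaCl replicate 1.

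Because many aquaporins share long stretches of sequence, several probes per gene were compared. The 28 tested members had 71 usable probes, and 13 of them had more than 1. Tested on its own, a probe was called higher with NaCl 4 times and lower 7 times, where 9.29% and 15% of all 30658 probes were called. The 7 lower calls were the 4 probes of TIP2-2, the single probes of PIP2-3 and SIP1-2, and 1 of the 6 probes of PIP2-1. ABA over control called none, where 0.76% of probes were called higher and 0.672% lower. ABA over NaCl called 8 probes of 5 members higher and 2 lower, where 11.8% and 9.17% of probes were called.

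Several genes had probes on both sides of 0 with NaCl, among them PIP1-3 (−0.37 to 0.92), PIP2-6 (−0.76 to 0.13), TIP1-2 (−0.48 to 0.61) and TIP2-1 (−0.18 to 0.70). In PIP2-1 such a difference reached a call. Its brightest probe differed by 0.14 with NaCl, and 2 other bright ones by 0.16 and 0.23, while its 3 dimmer probes differed by −0.59, −0.81 and −1.14. The dimmest probe, A_84_P858176, read 10.08, 10.29 and 10.06 with NaCl, 11.05, 11.69 and 11.66 with ABA, and 11.52, 11.67 and 10.67 in controls, and was called lower with NaCl (adjusted p = 0.0154). Which transcript form each probe reads was not examined here.

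PIP1-4 had a probe, A_84_P849448, with a mean difference of 3.28 with NaCl and 4.22 with ABA. It read 11.56 to 12.17 with NaCl, 12.52 to 12.92 with ABA, and 1.53, 12.62 and 11.37 in controls, so the mean rests on the single spot of control replicate 1. The brightest PIP1-4 probe differed by −0.38 with NaCl and 0.34 with ABA. A probe of PIP1-2, A_84_P808932, differed by 1.47 with NaCl (adjusted p = 0.0918, limma) and read 7.54, 7.84 and 7.75 on the NaCl arrays, against 5.11 and 7.38 on its 2 usable control arrays, while the other 5 probes of that gene stayed between −0.23 and 0.15.

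**Figure D4:**
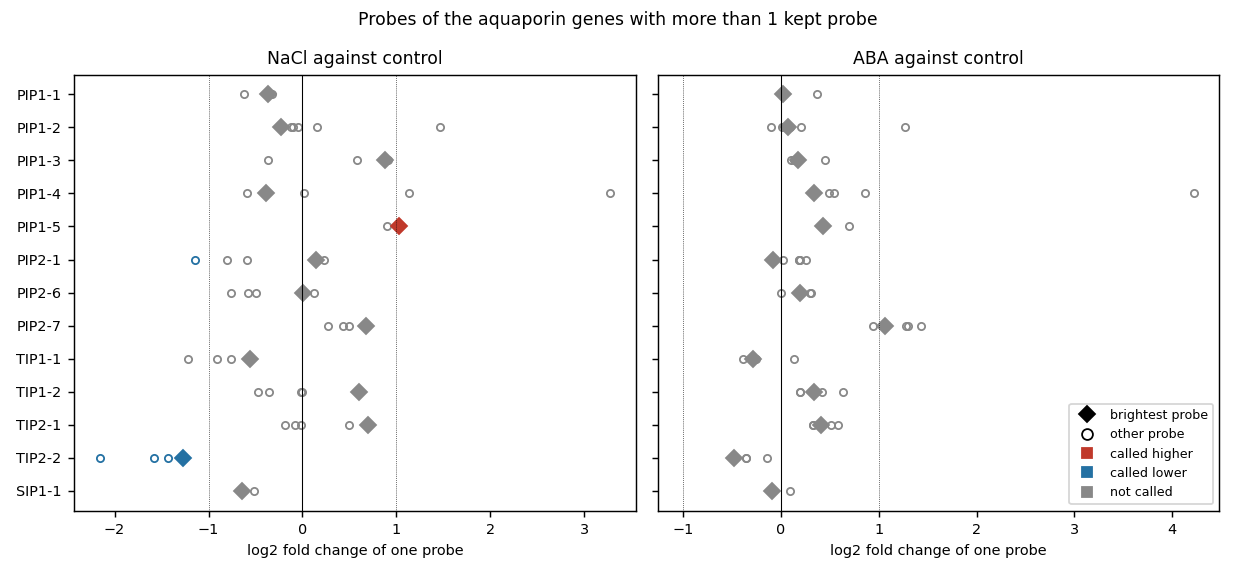
Log2 fold change (x axis) of every usable probe of the 13 aquaporin genes with more than 1 (rows), for NaCl against control (left) and ABA against control (right). Diamonds are the brightest probe of a gene and circles its other probes, colour marks probes called on their own, and dotted lines mark a fold of 2. All 4 TIP2-2 probes are called lower with NaCl, and the PIP1-4 probe at 3.28 and 4.22 rests on 1 control spot.

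**Figure D5:**
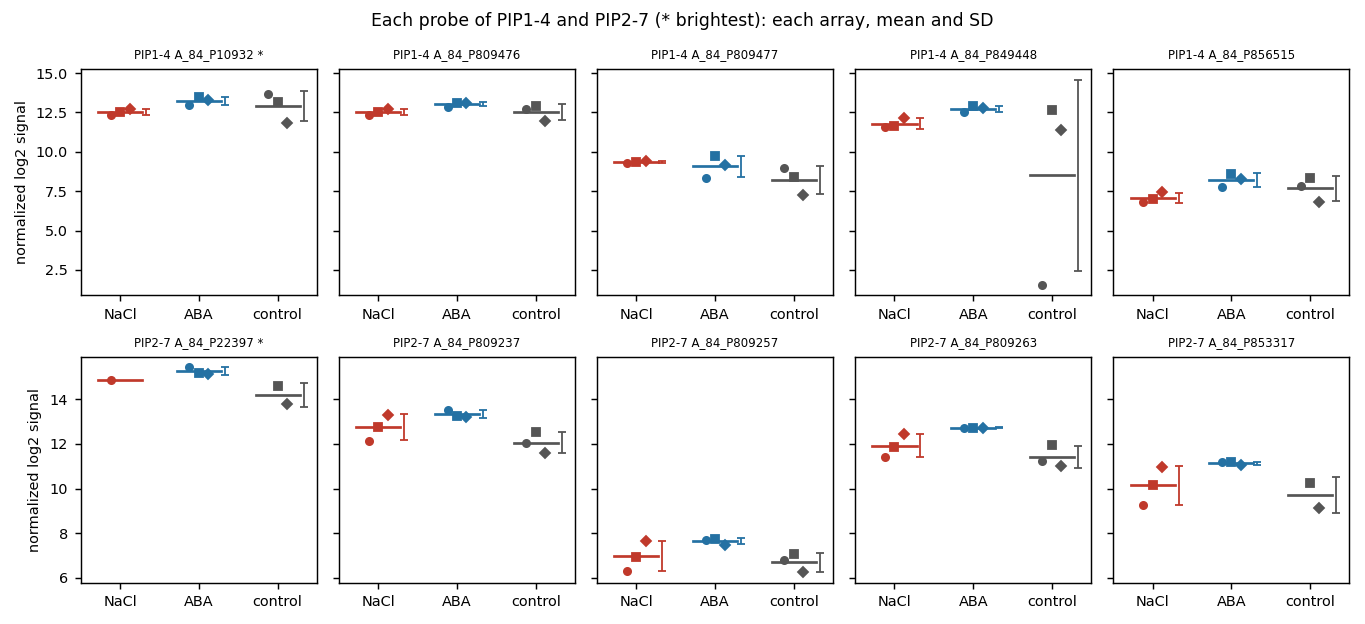
Normalized log2 signal (y axis, shared within a row) of each of the 5 probes of PIP1-4 (upper row) and PIP2-7 (lower row) on each usable spot, by group (x axis). Circles, squares and diamonds are replicates 1, 2 and 3, lines are means and bars the SD. One control spot of PIP1-4 probe A_84_P849448 is at 1.53, and the ABA spots of PIP2-7 lie above its control spots on all 5 probes.

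Control replicate 3 was the lowest control array for 17 of the 25 tested members with 3 usable control spots. The median SD of the members was 0.378 over NaCl arrays, 0.263 over ABA arrays and 0.501 over control arrays, where over all genes it was 0.286, 0.223 and 0.255.

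Transcripts of 13 genes linked to the control of aquaporins or of root water transport were read as a list, and all were tested. With NaCl, 4 were called higher and none lower, with a median of 0.24, where 9.93% and 13.3% of all genes were called and the median of all genes was −0.11. TSPO, a membrane protein that binds PIP2-7 and sends it to the vacuole for breakdown, read 11.19, 11.00 and 12.56 with NaCl, 11.90, 11.11 and 11.14 with ABA, and 5.90, 5.66 and 6.23 in controls. It was far higher with both treatments, by 5.66 ± 0.42 (adjusted p = 0.00015, limma) and 5.46 ± 0.42 (adjusted p = 0.00155). UBC32, a ubiquitin-conjugating enzyme that acts on PIP2-1, was higher by 1.25 ± 0.17 with NaCl and 1.47 ± 0.17 with ABA.

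OST1, the ABA-activated kinase that phosphorylates PIP2-1 in guard cells, was called with NaCl (1.00 ± 0.27, adjusted p = 0.0209), just at a fold of 2, and differed by 0.74 with ABA. HRA1, a factor of low oxygen responses linked to root water transport, was called with NaCl (4.16 ± 0.81, adjusted p = 0.00567). It read 11.67, 12.40 and 11.78 with NaCl, 10.31, 6.60 and 8.89 with ABA, and 7.64, 8.34 and 7.39 in controls, and was lower with ABA than with NaCl (−3.35 ± 0.81, adjusted p = 0.0151). With ABA, TSPO and UBC32 were the 2 called of the 13. The SNARE proteins SYP121 and SYP61, which deliver PIP2-7, differed by 0.24 and −0.47 with NaCl, and the ubiquitin ligase RMA1 by −0.64. VAP27-1, an endoplasmic reticulum protein, differed by 0.81 ± 0.15 (adjusted p = 0.00517), under the fold threshold. The receptor kinases SIRK1 and QSK1, which act on PIP2-4 under sucrose, differed by 0.01 and −0.29, and XND1, a repressor of root water transport, by 0.46.

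The 7 members that missed the filter were TIP1-3, TIP3-1, TIP3-2, NIP1-1, NIP3-1, NIP4-1 and NIP4-2. TIP3-1 and TIP3-2 are seed vacuole proteins and NIP4-1 and NIP4-2, neighbours on the chromosome, are pollen channels. TIP3-1 was above background on 1 NaCl array, 2 ABA arrays and no control array, at 3.07 to 4.50 on all 9. NIP4-2 read 1.99, 2.13 and 2.80 with NaCl, 4.49, 4.38 and 3.59 with ABA, and 4.13, 3.74 and 3.98 in controls, and was above background on 1 ABA array. NIP3-1 was above background on 1 ABA array, at 5.53, and TIP3-2 on none. Of 3 seed markers none was tested.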

How the data were processed

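RNA of whole seedlings was measured on 9 one-colour Agilent arrays, 3 each of NaCl, ABA and control. The intensity values are those the authors made with Agilent Feature Extraction 10.7.3.1, background-subtracted and not normalized between arrays. The deposited value table of the series holds log2 values that the authors had normalized, with the NaCl columns on another distribution (median 6.80, against 7.66), so it served as an alternative for ABA against control alone. Of 43603 probes, 34483 were matched to loci through RefSeq accessions (assembly TAIR10.1). Spots marked non-uniform (1 to 1141 per array) or outlying were left out. Intensities were log2-transformed and quantile-normalized over 9 arrays. A probe was kept if well above background on all 3 arrays of a group, and the brightest kept probe stood for its gene.

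All comparisons came from 1 limma 3.58.1 fit (R 4.3.3, data.table package 1.17.8, 2.04 prior degrees of freedom), with Benjamini-Hochberg adjustment over 22805 genes and a fold threshold of 2. A fold against spots not above background sets the bright group's mean against, on each array, the higher of the dimmest probe called above background and the probe's own signal. For NIP2-1 the probe's own signal was the higher, so the result equals the measured fold. With 3 arrays a group an exact permutation p cannot be under 0.1. The fit was tested on simulated data. Members and lists were chosen with earlier results of these data known. Named genes are every member called in a comparison, with the others by range and count, and list genes where called or where a result turns on them. Members that were not called but are described array by array were chosen after their values were seen, as were the probes. Some root markers are counted in their list and not reported here individually. Alternatives were other scaling, normexp (offset 50), filters, probe rules, blocks, array weights, the methods' t-test and leaving out each array. Testing each probe on its own was added after the data were seen. Figures used Python 3.11.15, pandas 2.3.3 and matplotlib 3.10.9.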

Additional observations from a re-analysis of the deposited data

Results flagged for a closer look

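Among the aquaporin genes, 4 differed between the treatments themselves, as tested by limma on ABA against NaCl with 3 arrays a group. PIP2-3 was higher with ABA than with NaCl by 1.45 (log2, adjusted p = 0.0472), and SIP1-2 by 1.87 (adjusted p = 0.00126), in both on 3 of 3 ABA arrays against every NaCl array. The PIP2-3 call was lost when any of 6 single arrays was left out (adjusted p = 0.0524 to 0.134). TIP5-1 was lower with ABA (−1.74, adjusted p = 0.00141) on 3 of 3 arrays. NIP2-1 was 45.0-fold lower with ABA as measured (log2 difference −5.49, adjusted p = 0.00917), with no ABA spot above background, and it passed the filter only through the NaCl arrays. Over all genes 20.3% were called in this comparison, so 4 of 28 is no more than the background. For TIP5-1, all ABA arrays were below and all NaCl arrays above the control arrays. The differences rest on arrays of different slides and scan days, which cannot be told apart from the treatments.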

How the results depend on the processing

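For NaCl against control, 4 members were called higher and 3 lower. The higher count was 2 without scaling between arrays, 2 with normexp and 2 by the methods' t-test unadjusted. The adjusted t-test gave 0 higher and 0 lower. Slide as a random block gave 6 higher (TIP2-3 and TIP4-1 gained), and keeping marked spots gave 5 (PIP2-7 gained). With array weights, PIP2-4 and TIP2-3 were gained as higher and NIP1-2 was lost, while NIP7-1 was gained as lower and TIP2-2 was lost. The slide block, with a fitted correlation of −0.341, does not adjust for slide, since no slide held more than 1 group. Leaving out 1 array at a time gave 2 to 5 higher and 1 to 5 lower. For ABA against control, 0 were called higher, but 1 without scaling, 1 with slide as a random block and 1 by unadjusted limma p, with 0 to 0 when arrays were left out. For ABA against NaCl, 2 were called higher. This became 11 without scaling, 5 with array weights, 4 with probes averaged per gene, 4 with the dimmest probe, 1 with 75th percentile scaling, 1 with normexp and 0 by the adjusted t-test, and 5 members had any probe called on its own, an alternative chosen after seeing the data. With 2 lower, 75th percentile scaling gave 4, array weights 5, no fold threshold 5, normexp 1, a filter on all 9 arrays 1, and the t-test 1 unadjusted and 0 adjusted. Leaving out arrays gave 1 to 3 higher and 2 to 5 lower. The dimmest probe of PIP2-1 turned its direction, to −1.14 with NaCl against control and 1.32 for ABA against NaCl, and with the dimmest probe of every gene the tested TIPs had a median of −0.08 with NaCl. The cause of these shifts was not tested. Single-member values stayed on their side of the threshold in 1776 cases, gained a call in 43, lost one in 44 and reversed in 2.

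Replicate numbers did not pair the samples (correlations of −0.288 to 0.225, own number best in 2 of 9). With the replicate block, ABA against NaCl called 1 member higher, since PIP2-3 had an adjusted p of 0.0759, and 3 lower, since TIP2-3 was gained (adjusted p = 0.0392). Over all genes, the block called 124 higher and 82 lower with ABA, against 192 and 167 without it. Without scaling, 1325 and 60 genes were called with ABA against control and 8096 and 825 with ABA against NaCl, against 2382 and 2237, and the medians of all genes moved to 0.48 and 0.78. NaCl called 342 and 254 genes by the adjusted t-test, against 2264 and 3024. The value table of the series was run for ABA against control alone, with 0 members called, and not for the NaCl comparisons. Intensity over background limits NIP2-1, NIP7-1 and the 7 untested members.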
